A study of Mus musculus with 12 samples.

Results

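The genes described here encode actin and the proteins that assemble, cap, cut, bundle or move along its filaments. They were taken by gene symbol: the actins Actb and Actg1, the Arp2/3 subunits, cofilins, profilin, capping proteins, coronins, unconventional myosins, thymosins, tropomyosins, alpha-actinins and formins of the Diap type, with Capg, Cap1, Gsn, Was and Wdr1. Of 13016 genes in the table, 57 matched, and 50 of them were expressed highly enough to be tested. They were chosen by name, with earlier results of these data known. The study sequenced messenger RNA of early thymic progenitors (ETPs), which seed the T lineage in the thymus, sorted from mice of the C57BL/6 strain. Each of the 12 libraries was made by the SMARTer full-length method from 100 sorted cells, 4 libraries per genotype, and held 13623436 to 33985972 reads over the genes of the table. All mice carried loxP-flanked (fl/fl) alleles of Ezh2, a histone methyltransferase gene, and of Runx1, a transcription factor gene of blood development. The group called dKO_Flt3ITD here carried the Rag1Cre recombinase and 1 Flt3 allele with an internal tandem duplication (Flt3 ITD/+). The group called dKO carried Rag1Cre without that Flt3 allele, and the control group carried the loxP-flanked alleles without a recombinase. Rag1Cre deletes only where Rag1 is or has been active, so the cells of a library need not all have deleted both genes. Nothing in the labels says whether libraries of 1 group came from separate animals, so the p-values below measure only the spread between these libraries.

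Actin filaments grow from monomers at a fast-growing end, branch where the Arp2/3 complex binds them, and stop growing where a capping protein covers the end. Cofilin, profilin and the thymosins turn filaments over and hold the monomer pool, while tropomyosins, alpha-actinins and coronins decorate or crosslink filaments and myosins pull on them. In lymphocyte progenitors this machinery serves migration into and through the thymus, adhesion to stroma and division.

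For most of these genes no difference between the 3 genotypes passed the test. Capg, which encodes a filament end capping protein of the gelsolin family, was the exception on the high side. It averaged 124 ± 46.3 RPKM in dKO_Flt3ITD and 79.5 ± 12.8 in dKO, against 22.3 ± 4.94 in control (SD, n = 4 each). Actn1, the gene of the crosslinker alpha-actinin 1, and Tpm4, a tropomyosin gene, were lower in dKO_Flt3ITD. RPKM are reads scaled to transcript length and library size, so levels can be set side by side between genes. A gene is said below to have risen or fallen only where limma on log2(RPKM + 1), adjusted by the Benjamini-Hochberg method over all 10690 genes tested, gave an adjusted p under 0.05. In dKO_Flt3ITD against control 3 of the 50 genes did so (6.0%), 1 up and 2 down, where 1.5% of all tested genes did, 0.992% up and 0.505% down. In dKO against control 1 of 50 did (2.0%), upward, where 1.02% of all tested genes did, 0.786% up and 0.234% down. In dKO_Flt3ITD against dKO none did, and 0% of all tested genes did by limma, with 824 genes (7.71%) at an unadjusted p under 0.05, and 4 of the 50 actin genes (8.0%); voom on the recovered reads also called none. The median log2 fold change of the 50 genes was 0.12, 0.01 and 0.11 in these 3 comparisons, beside 0.00, 0.01 and 0.00 over all tested genes.

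**Figure D1:**
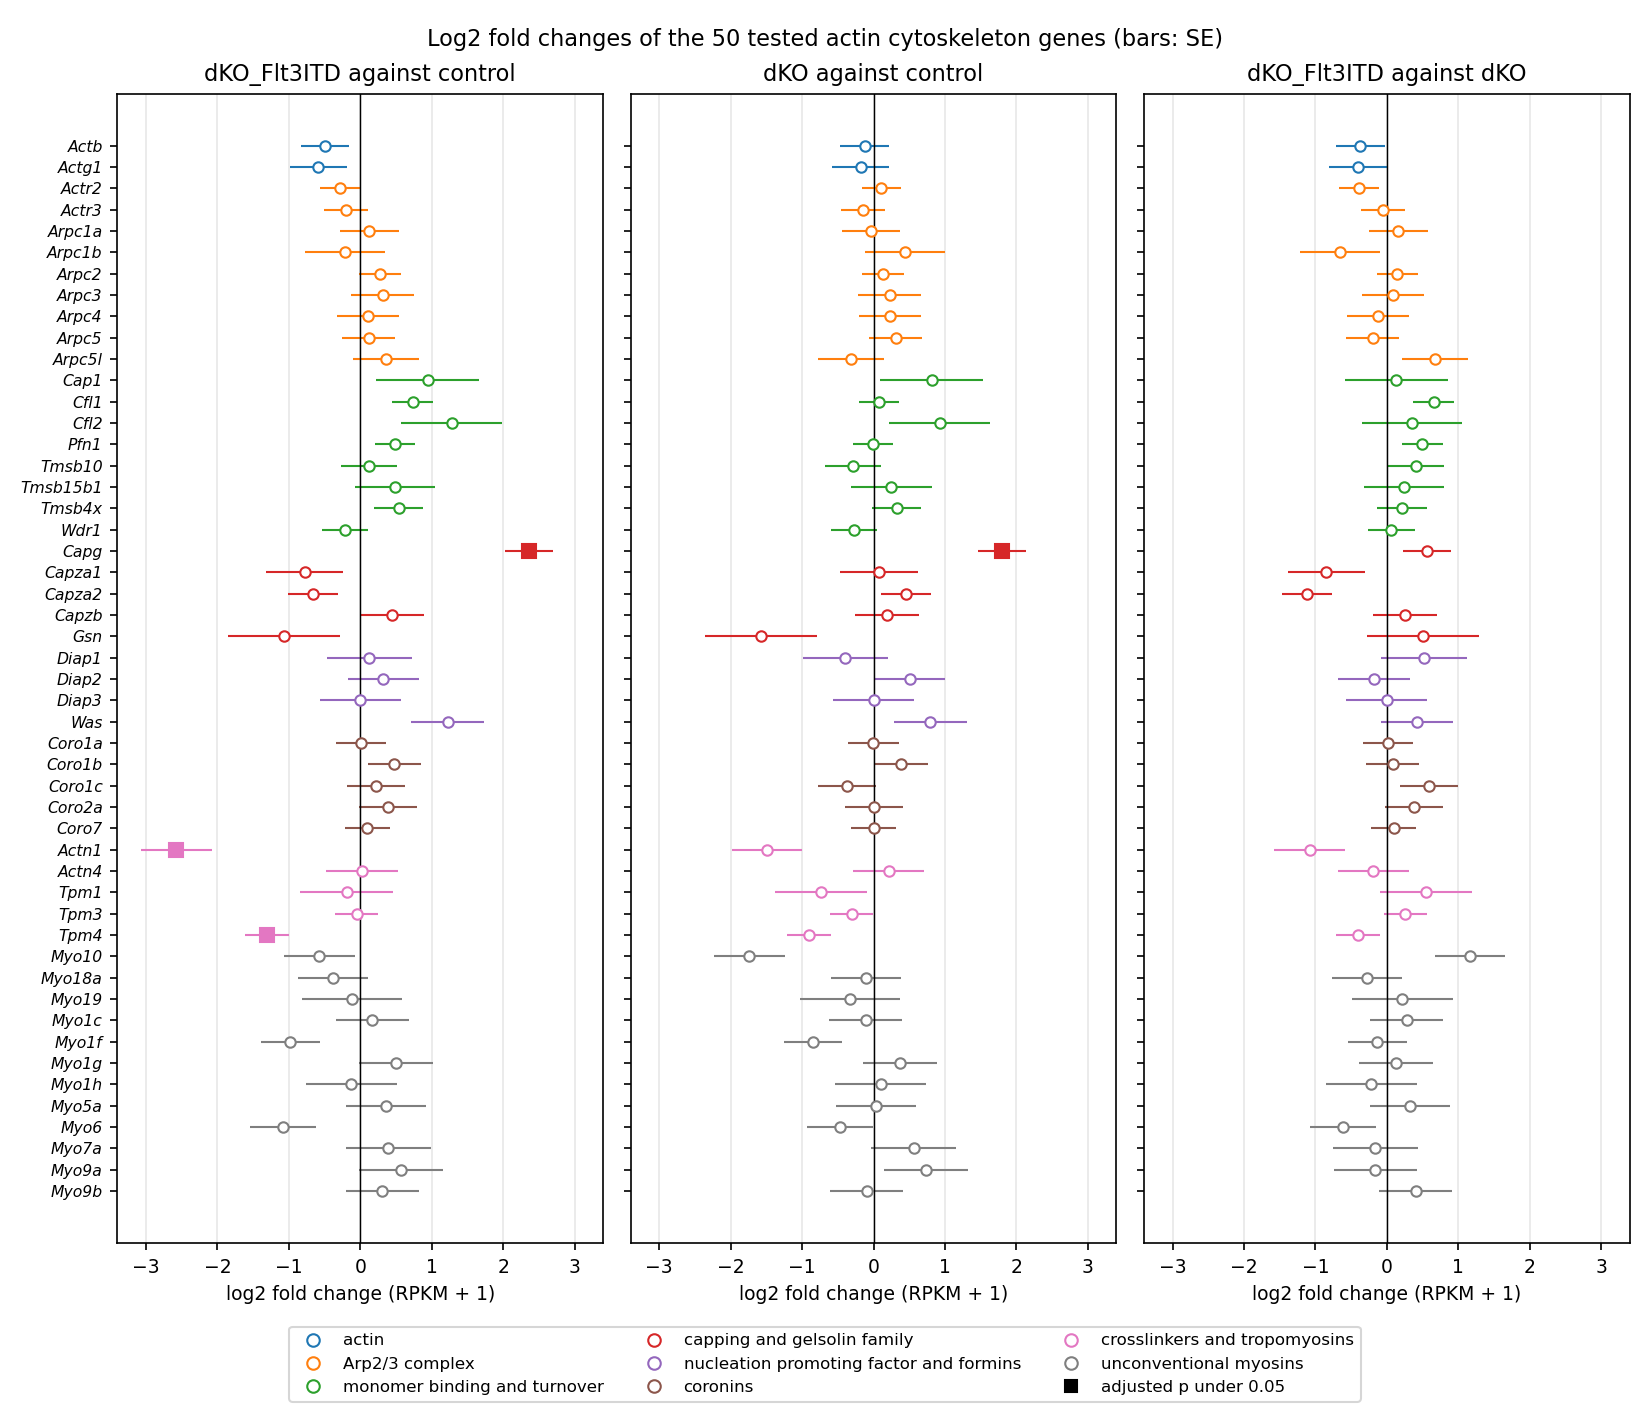
Log2 fold changes on the RPKM + 1 scale of the 50 tested genes in the 3 comparisons, 1 row per gene, coloured by role, with bars of 1 SE and filled squares for an adjusted p under 0.05. Capg stands at 2.36 and 1.80 against control in the left and middle panels, Actn1 and Tpm4 at -2.58 and -1.30 in the left panel, and no gene is filled in the right panel.

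The levels of the 57 genes spanned the whole range of the table. Actb ranked 5 of 13016 genes by mean, and 3 genes, Actb, Tmsb4x and Cfl1, averaged over 1000 RPKM. In all, 18 genes averaged at least 100 RPKM, 24 averaged under 10 RPKM and 8 under 1 RPKM. Of the 57 genes 46 were above 0 in every library. Among the 7 genes too low to be tested were Coro2b and Tpm2. Together the 57 genes took 2.28 ± 0.51% of all RPKM in dKO_Flt3ITD and 2.45 ± 0.10% in dKO, against 2.74 ± 0.10% in control (SD, n = 4 each). The actins made up 47.2% of that sum and the monomer-binding and turnover genes 31.4%. The share in dKO_Flt3ITD ran between 1.59% and 2.81%, and its lowest value came from dKO_Flt3ITD 1, where actin itself took 0.332% of all RPKM. That library also had the largest sum of RPKM over the table, 1071041 against 515638 to 829421 in the other libraries. Of the 50 tested genes 12 had their highest value in dKO_Flt3ITD 1 and 14 had their lowest in control 1, the library with the lowest mean correlation with the others, 0.786. Control 1 also had the smallest sum of RPKM over the table, 515638. The share of all tested genes with their highest or lowest value in these libraries was not computed. In bulk RNA fewer cells of a type and less RNA per cell cannot be told apart.

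**Figure D2:**
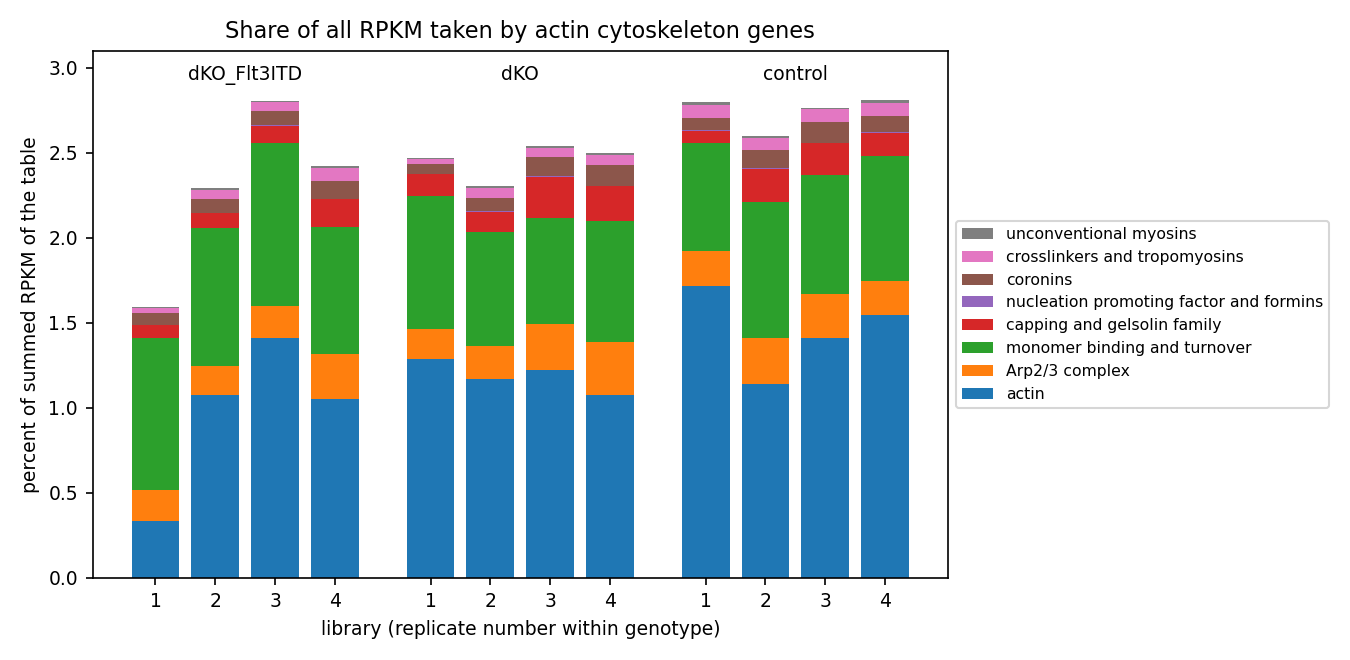
Percent of the summed RPKM of the table taken by the 57 genes in each library, stacked by role, with libraries grouped by genotype. The stacks reach 1.59% to 2.81% in dKO_Flt3ITD and 2.31% to 2.54% in dKO, against 2.60% to 2.81% in control, and the lowest stack, dKO_Flt3ITD 1, has an actin share of 0.332%.

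Among the 5 capping and gelsolin family genes, Capg alone passed the test. Capg caps the fast-growing ends of filaments without cutting them and is best known from macrophages. Capg had 179, 127, 65.6 and 125 RPKM in the 4 dKO_Flt3ITD libraries, 70.1, 68.1, 95.2 and 84.8 in dKO, and 16.5, 22.7, 28.6 and 21.5 in control. Every dKO_Flt3ITD and every dKO library was above every control library, while the 2 mutant groups overlapped. Capg rose in dKO_Flt3ITD against control with a log2 fold change of 2.36 (SE 0.34, adjusted p = 0.0012) and in dKO against control with 1.80 (SE 0.34, adjusted p = 0.0130). The ratios of the means were 5.55 and 3.56. In dKO_Flt3ITD against dKO the log2 fold change was 0.56 (SE 0.34, adjusted p = 0.746). The call against control in dKO_Flt3ITD held without any 1 of the 8 libraries compared, with log2 fold changes of 2.03 to 2.63 over 20 alternatives. The call in dKO was lost without dKO 3 (adjusted p = 0.0540), without dKO 4 (adjusted p = 0.0508) and with voom on the recovered reads (adjusted p = 0.0908), at log2 fold changes of 1.71, 1.76 and 1.79.

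Capg is abundant in macrophages, and 9 of 13 listed macrophage genes were in the table. Their summed level was 158, 54.5, 73.4 and 86.9 RPKM in dKO_Flt3ITD and 154, 56.4, 78.9 and 103 in dKO, against 52.0, 22.3, 42.4 and 73.2 in control. The groups overlapped, with library 1 the highest of each mutant group. Of the 9 genes, 7 had a positive log2 fold change in dKO_Flt3ITD against control, where Emr1 and Spic rose, and all 9 in dKO against control, where Mrc1 rose. Emr1, a surface marker gene of macrophages, had 31.8, 2.48, 2.50 and 43.4 RPKM in dKO_Flt3ITD and 0.480, 7.26, 5.22 and 0.0331 in dKO, against at most 0.0371 in control. C1qa, a complement gene of tissue macrophages, had 4.65, 0, 5.95 and 0.152 RPKM in dKO_Flt3ITD and 4.59, 0.121, 0.164 and 2.18 in dKO, and was at 0 in all controls but control 2. C1qb and Cd163, also on the list, went the other way in dKO_Flt3ITD. C1qb had 0.207, 0, 11.6 and 7.57 RPKM there, against 22.8, 0.709, 13.1 and 16.9 in control. In dKO C1qb had 39.1, 0.804, 21.1 and 14.3. Cd163 had 3.29, 1.28, 4.99 and 1.89 RPKM in dKO_Flt3ITD, against 6.41, 3.07, 7.83 and 6.44 in control. The part of macrophage RNA in the Capg result was not tested.

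The promoters of the 3 genes that passed are shown so that the genes that differed can be compared at their starts, as the 250 bases before each gene's RefSeq start, 5′ to 3′ on the gene's strand, in build GRCm38.p6. CG dinucleotides are in capitals, since DNA methylation of promoters falls on them. They are chr6:72549397-72549646 on the plus strand for Capg, chr12:80260364-80260613 on the minus strand for Actn1 and chr8:72135038-72135287 on the plus strand for Tpm4.
Capg: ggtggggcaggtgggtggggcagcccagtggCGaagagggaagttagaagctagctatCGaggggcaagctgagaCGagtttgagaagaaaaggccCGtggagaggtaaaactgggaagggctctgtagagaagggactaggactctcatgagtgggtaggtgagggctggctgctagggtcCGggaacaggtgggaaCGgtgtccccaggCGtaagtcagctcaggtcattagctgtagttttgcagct
Actn1: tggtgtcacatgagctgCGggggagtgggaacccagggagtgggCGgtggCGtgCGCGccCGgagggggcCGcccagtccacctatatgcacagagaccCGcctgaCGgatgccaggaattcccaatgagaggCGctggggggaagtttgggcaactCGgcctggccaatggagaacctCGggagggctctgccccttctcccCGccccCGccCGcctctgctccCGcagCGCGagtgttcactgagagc
Tpm4: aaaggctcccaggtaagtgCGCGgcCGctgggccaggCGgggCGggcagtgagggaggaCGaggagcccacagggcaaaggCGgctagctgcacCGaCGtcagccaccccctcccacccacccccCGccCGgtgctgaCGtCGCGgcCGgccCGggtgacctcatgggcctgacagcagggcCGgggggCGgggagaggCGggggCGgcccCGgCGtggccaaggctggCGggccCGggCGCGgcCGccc
The Capg window holds 7 CG dinucleotides, the Actn1 window 18 and the Tpm4 window 27. Over all 32851 such windows of 27025 mouse genes the median was 6, with the middle 50% between 2 and 16, and over the 65 windows of the 52 actin genes that matched it was 15. The 27025 genes include many outside the 13016 of the table, so the 2 sets of windows are not matched for expression. On both strands 3 motifs were searched: the CArG box bound by SRF, the RUNX core TGTGGT and the TATA sequence TATAAA, which a CArG box can contain. None of the 3 printed windows holds any of them. The CArG box was in 4.62% of the actin gene windows, those of Actg1, Arpc4 and Myo1e, and in 1.47% of all windows. TGTGGT was in 20% of the actin gene windows and 14.05% of all, and TATAAA in 3.08%, those of Myo10 and Myo5c, and 12.4%. A match describes letters in a window and says nothing of binding. The GENCODE gene of Capg begins upstream of the RefSeq start used, at chromosome 6 position 72544391, and ends at 72562983.

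The other capping genes differed in pattern from Capg. Capza2, the alpha subunit gene of capping protein with the highest level here, had 300.5, 232, 272 and 390.3 RPKM in dKO_Flt3ITD, 713, 403, 791 and 713 in dKO, and 223, 667, 618 and 499 in control. All 4 dKO_Flt3ITD libraries were below all 4 dKO libraries, while control overlapped with each of them. Its log2 fold change in dKO_Flt3ITD against dKO was -1.11 (SE 0.35), with an unadjusted p of 0.0056 and an adjusted p of 0.400. Capza2, Cfl1 and Myo10 were the 3 of 50 genes whose groups did not overlap in that comparison (6.0%), where 4.28% of all tested genes did not overlap, 2.08% on the high side and 2.2% on the low side. Capza1, its paralog, and Capzb, the beta subunit gene, had log2 fold changes of -0.85 and 0.25 there (adjusted p = 0.763 and 0.939). Gsn encodes gelsolin, which cuts filaments and caps them. Gsn had 3.02, 0, 2.55 and 0.954 RPKM in dKO_Flt3ITD, 0, 0, 4.09 and 0.347 in dKO, and 2.51, 10.9, 11.9 and 0.0118 in control, where the last value rests on 1 read. Only control 2 and control 3 stood high, and the log2 fold changes of -1.07 and -1.58 against control did not pass (adjusted p = 0.596 and 0.589).

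**Figure D3:**
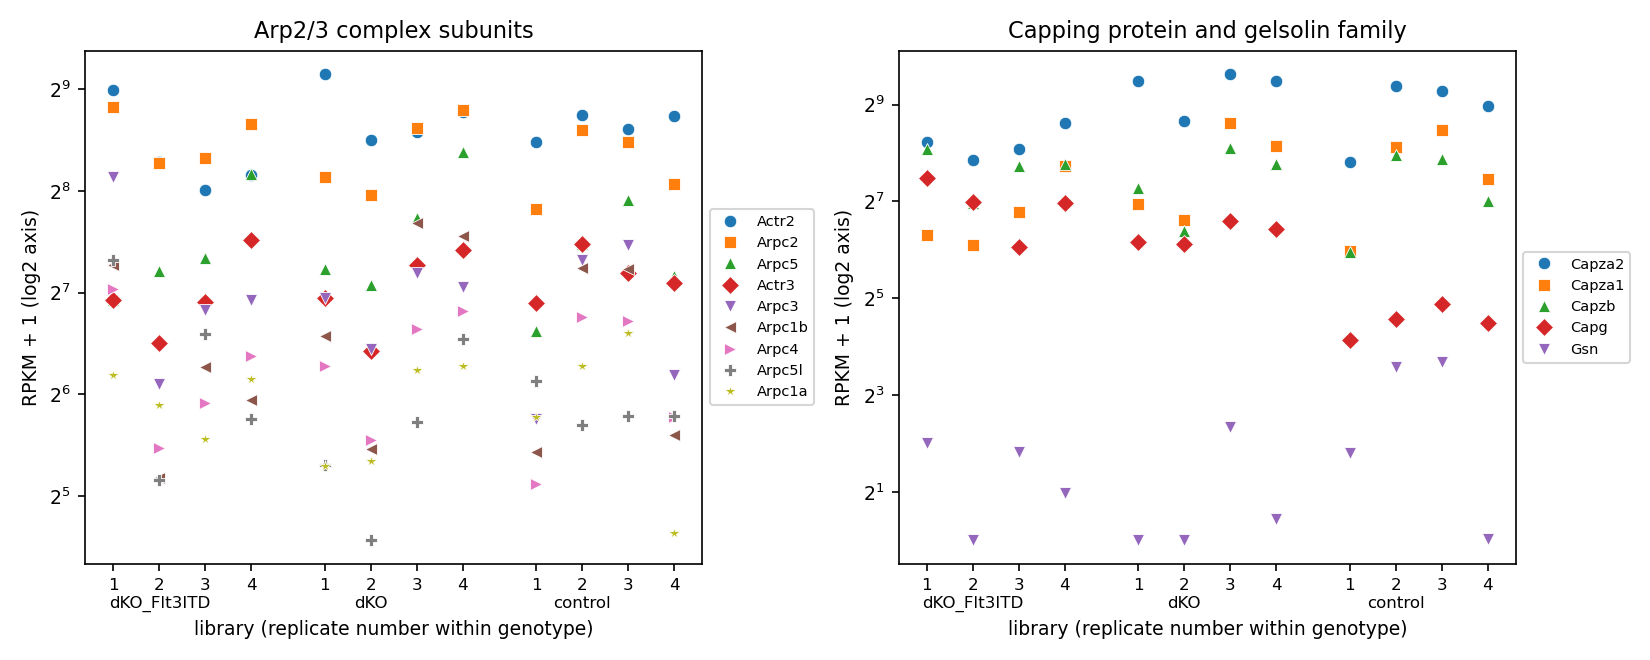
RPKM + 1 on a log2 axis of the 9 Arp2/3 subunit genes (left) and the 5 capping and gelsolin family genes (right) in each library, with 1 marker shape and colour per gene. In the right panel Capg lies between 65.6 and 179 RPKM in dKO_Flt3ITD and between 68.1 and 95.2 in dKO, against 16.5 to 28.6 in control, while the Arp2/3 genes overlap between all groups.

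Of the 5 tested crosslinker and tropomyosin genes 2 fell in dKO_Flt3ITD against control, and the median log2 fold change of the 5 was -0.19. Actn1 had 1.20, 0.631, 0.0108 and 0.441 RPKM in dKO_Flt3ITD, 3.65, 2.41, 0.540 and 3.29 in dKO, and 5.67, 9.50, 9.10 and 8.32 in control. These values rest on 122, 44, 1 and 40 reads in dKO_Flt3ITD, 228, 137, 57 and 229 in dKO, and 575, 708, 849 and 898 in control. Each mutant group lay wholly below control, and the mutant groups overlapped through dKO 3. Actn1 fell in dKO_Flt3ITD against control with a log2 fold change of -2.58 (SE 0.49, adjusted p = 0.0111), and in dKO the change of -1.49 did not pass (adjusted p = 0.235). The call held without any 1 of the 8 libraries compared but not with voom on the recovered reads, where the log2 fold change was -4.93 (adjusted p = 0.114). The size of the fold depends on the pseudocount for a gene this low, between -4.05 at 0.1 and -1.23 at 5. Actn4, the gene of the other nonmuscle alpha-actinin, averaged 11.2 ± 3.22 RPKM in dKO_Flt3ITD and 13.4 ± 6.16 in dKO, against 12.3 ± 6.95 in control (SD, n = 4 each), and did not pass.

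Tpm4 had 68.6, 44.2, 87.5 and 65.2 RPKM in dKO_Flt3ITD, 56.5, 81.2, 100.0 and 117 in dKO, and 154, 139.7, 179 and 172 in control. Both mutant groups lay wholly below control, and they overlapped each other. Tpm4 fell in dKO_Flt3ITD against control with a log2 fold change of -1.30 (SE 0.31, adjusted p = 0.0454), close to the threshold. The call was lost in 13 of 20 alternatives, among them leaving out any 1 of the 8 libraries compared other than dKO_Flt3ITD 3, where the adjusted p reached 0.130 without dKO_Flt3ITD 2, 0.116 without control 3 and 0.119 without control 4. It was 0.0755 without dKO_Flt3ITD 1, 0.0642 without dKO_Flt3ITD 4, 0.0737 without control 1 and 0.0856 without control 2, while the log2 fold change kept between -1.56 and -1.12 in all 20. In dKO against control it was -0.90 (SE 0.31, adjusted p = 0.273). Tpm3, the most highly expressed tropomyosin gene here, averaged 252 ± 66.5 RPKM in dKO_Flt3ITD and 211 ± 58.7 in dKO, against 253 ± 17.1 in control (SD, n = 4 each). The log2 ratio of Tpm4 to Tpm3 was taken within each library, so library scaling can move it only through the 1 added to each RPKM. This ratio was -1.90 ± 0.65 in dKO_Flt3ITD and -1.24 ± 0.19 in dKO, against -0.65 ± 0.18 in control. Against control both exact two-sided permutation tests gave p = 0.0286, the smallest that 4 against 4 libraries allow, and an adjusted p of 0.30 over the 21 ratio tests run on 7 pairs of paralogs. No ratio passed.

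**Figure D4:**
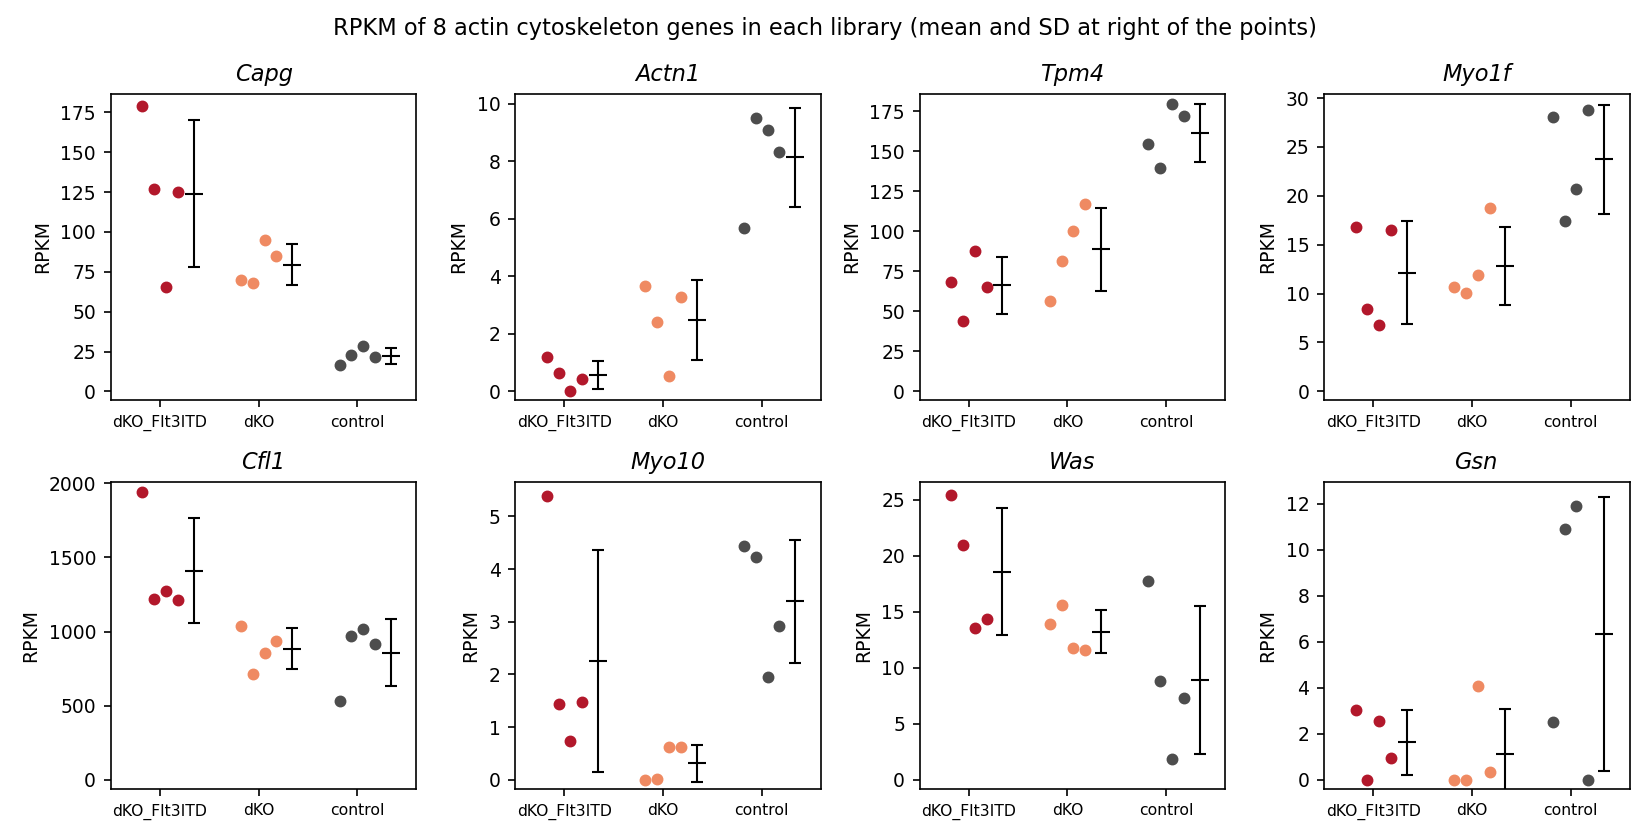
RPKM of 8 actin cytoskeleton genes in each library, by genotype, with the mean and SD (n = 4) beside the points. Capg is above control in both mutant groups, Actn1 and Tpm4 are below it, and Cfl1 is highest in dKO_Flt3ITD 1 at 1937 RPKM.

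The actins themselves did not pass in any comparison. Actb had 2631, 6368, 8764 and 5298 RPKM in dKO_Flt3ITD, 9811, 6028, 6518 and 5626 in dKO, and 8375, 5872, 7484 and 8297 in control. The groups overlapped, and the low end was dKO_Flt3ITD 1 alone. The log2 fold change of Actb was -0.49 in dKO_Flt3ITD against control (SE 0.34, adjusted p = 0.572) and -0.12 in dKO against control (SE 0.34, adjusted p = 0.968). Actg1, the gene of gamma-actin, averaged 694 ± 191 RPKM in dKO_Flt3ITD and 958 ± 381 in dKO, against 1122 ± 544 in control (SD, n = 4 each), with log2 fold changes of -0.58 and -0.18 against control. The dKO value turned positive without dKO 2 (0.13) and without control 3 (0.08). Actb, Actg1, the thymosins, profilin and cofilin have near-identical processed copies in the genome, and how reads matching several places were counted is not given in the sources used here, so their levels are uncertain.

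Of the 8 genes that bind monomers or drive turnover, 7 had a positive log2 fold change in dKO_Flt3ITD against control (87.5%), with a median of 0.51, and none passed. Over all tested genes 50.1% had a positive change there, with a median of 0.00. Cfl1 encodes cofilin 1, which cuts and disassembles ageing filaments. Cfl1 had 1937, 1222, 1273 and 1212 RPKM in dKO_Flt3ITD, 1039, 710.3, 858 and 933 in dKO, and 529, 970.0, 1018 and 914 in control. All dKO_Flt3ITD libraries were above all others, with dKO_Flt3ITD 1 far above the rest and control 1 far below. The log2 fold change was 0.73 against control (SE 0.28, unadjusted p = 0.0193, adjusted p = 0.256) and 0.66 against dKO (SE 0.28, unadjusted p = 0.0334, adjusted p = 0.612). Without dKO_Flt3ITD 1 these were 0.57 and 0.49. With libraries scaled to an equal sum of RPKM they were 0.47 and 0.54, a scaling that moves the median of all genes by -0.21 in dKO_Flt3ITD against control.

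Pfn1, the gene of profilin 1, which hands monomers to growing ends, had 1625, 851, 1147 and 1014 RPKM in dKO_Flt3ITD, 1139, 682, 705 and 740.0 in dKO, and 631, 792, 981 and 849.9 in control. The groups overlapped and its log2 fold change of 0.49 in dKO_Flt3ITD against control did not pass (SE 0.28, adjusted p = 0.487). Tmsb4x, the gene of thymosin beta 4, the main monomer-sequestering peptide, averaged 2615 ± 1233 RPKM in dKO_Flt3ITD and 2155 ± 701 in dKO, against 1711 ± 481 in control (SD, n = 4 each; adjusted p = 0.539 and 0.892 against control). Tmsb10, its paralog, averaged 1007 ± 511 RPKM in dKO_Flt3ITD and 690.5 ± 265 in dKO, against 808 ± 28.1 in control (SD, n = 4 each), and ran between 334 RPKM in dKO_Flt3ITD 4 and 1575 in dKO_Flt3ITD 1. Cfl2, the muscle-type cofilin gene, had the largest change of this role against control in both mutant groups, with log2 fold changes of 1.28 and 0.93 (SE 0.71 each, adjusted p = 0.452 and 0.819). Its lowest value was 0.106 RPKM in control 4, and without that library the change in dKO was -0.015. Cap1 and Wdr1, which help cofilin, and Tmsb15b1 did not pass in any comparison.

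All 9 Arp2/3 subunit genes were tested, and none passed in any comparison. Of the 9, 6 were higher in dKO_Flt3ITD against control and 6 in dKO against control, with median log2 fold changes of 0.12 and 0.13. Of all tested genes 50.1% and 50.7% were higher in these comparisons. Actr2, which encodes the Arp2 subunit, had 506, 309.5, 257 and 283 RPKM in dKO_Flt3ITD, 566, 360.1, 381 and 437 in dKO, and 356, 427, 388 and 425 in control. The groups overlapped, with dKO_Flt3ITD 1 and dKO 1 the highest. Arpc2, the gene of a scaffold subunit, averaged 371 ± 69.4 RPKM in dKO_Flt3ITD and 340.4 ± 92.5 in dKO, against 308 ± 75.04 in control (SD, n = 4 each). Arpc5l had the largest log2 fold change of the 9 in dKO_Flt3ITD against dKO, 0.67 (SE 0.46, adjusted p = 0.783), and Arpc1b the largest in dKO against control, 0.44 (SE 0.56, adjusted p = 0.921). In 8 of the 9 genes the lowest control library was control 1 or control 4, and control 4 was the lowest only for Arpc1a. The share of all tested genes with this trait was not computed.

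Was encodes the WASP protein, which activates Arp2/3 in blood cells. Was had 25.4, 21.0, 13.5 and 14.3 RPKM in dKO_Flt3ITD, 13.9, 15.6, 11.8 and 11.6 in dKO, and 17.8, 8.82, 1.86 and 7.31 in control. The groups overlapped through control 1, and the other controls were below all mutant libraries. The log2 fold change was 1.22 in dKO_Flt3ITD against control (SE 0.51, adjusted p = 0.293) and 0.80 in dKO against control (SE 0.51, adjusted p = 0.740). The 3 formin genes Diap1, Diap2 and Diap3 averaged under 10 RPKM in every group and did not pass.

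Coro1a, the coronin gene of blood cells, averaged 430.3 ± 103 RPKM in dKO_Flt3ITD and 435 ± 139.9 in dKO, against 453 ± 185 in control (SD, n = 4 each). Its log2 fold changes were 0.01 and -0.00 against control (SE 0.35, adjusted p = 0.996 and 0.999). Coro1b, which acts at the leading edge of moving cells, averaged 86.9 ± 10.1 RPKM in dKO_Flt3ITD and 86.3 ± 33.0 in dKO, against 67.5 ± 31.2 in control (SD, n = 4 each), with adjusted p of 0.633 and 0.869. Coro1c had the largest coronin change in dKO_Flt3ITD against dKO, 0.59 (SE 0.40, adjusted p = 0.783). None of the 5 tested coronin genes passed.

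The unconventional myosins, motors that carry membranes and cargo along actin, were mostly low, with 15 of 17 genes averaging under 10 RPKM. Myo1g and Myo1f, the class I myosins of blood cells, were the 2 exceptions. None of the 12 tested passed in any comparison, and their median log2 fold change was 0.03 in dKO_Flt3ITD against control and -0.10 in dKO against control. Myo1f had 16.8, 8.45, 6.75 and 16.5 RPKM in dKO_Flt3ITD, 10.7, 10.1, 11.9 and 18.7 in dKO, and 28.1, 17.4, 20.7 and 28.8 in control. All dKO_Flt3ITD libraries were below all controls, by a margin of less than 1 RPKM between the nearest, and dKO overlapped control. The log2 fold change was -0.98 in dKO_Flt3ITD against control (SE 0.41, adjusted p = 0.302). Myo1g averaged 28.3 ± 6.63 RPKM in dKO_Flt3ITD and 26.2 ± 8.44 in dKO, against 24.8 ± 16.7 in control (SD, n = 4 each).

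Myo10, the motor of filopodia, had 5.38, 1.44, 0.735 and 1.48 RPKM in dKO_Flt3ITD, 0, 0.0162, 0.621 and 0.617 in dKO, and 4.44, 4.24, 1.95 and 2.92 in control. The dKO libraries were below all libraries of both other groups. The log2 fold change was -1.74 in dKO against control (SE 0.50, unadjusted p = 0.0027, adjusted p = 0.136) and 1.16 in dKO_Flt3ITD against dKO (SE 0.50, adjusted p = 0.602). Myo6, the myosin that moves towards the slow-growing end, had 0, 0, 0 and 0.0628 RPKM in dKO_Flt3ITD, 1.42, 0, 0.167 and 1.04 in dKO, and 0.567, 0.421, 3.01 and 1.37 in control. All dKO_Flt3ITD libraries were below all controls, and the log2 fold change of -1.08 did not pass (SE 0.46, adjusted p = 0.310). Counting these, 6 of 50 genes had no overlap between dKO_Flt3ITD and control (12%), namely Capg and Cfl1 on the high side and Actn1, Tpm4, Myo1f and Myo6 on the low side, where 7.67% of all tested genes had none, 4.16% on the high side and 3.51% on the low side. Between dKO and control 4 of 50 had none (8.0%), Capg high and Actn1, Tpm4 and Myo10 low, where 6.3% of all tested genes had none, 3.93% high and 2.38% low. Apart from Capg, Actn1 and Tpm4 in dKO_Flt3ITD and Capg in dKO, none of these passed the adjusted test.

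Further genes of actin regulation were read from lists of 92 symbols, of which 80 were in the table and 75 were tested. Marcks was the 1 gene that passed, in dKO_Flt3ITD against control, or 1.33% of the 75, where 1.5% of all tested genes did. The median log2 fold change over the 75 genes was 0.04 there. None passed in dKO against control or in dKO_Flt3ITD against dKO, with medians of 0.02 and -0.08. Marcks encodes a protein that crosslinks actin and binds the plasma membrane. Marcks had 32.9, 58.3, 26.9 and 10.4 RPKM in dKO_Flt3ITD, 81.5, 82.0, 88.7 and 111 in dKO, and 60.3, 158, 109 and 138 in control. All dKO_Flt3ITD libraries were below all libraries of the other groups, and dKO overlapped control. Marcks fell in dKO_Flt3ITD against control with a log2 fold change of -1.97 (SE 0.44, adjusted p = 0.0325), and its change of -1.69 against dKO did not pass (SE 0.44, unadjusted p = 0.0012, adjusted p = 0.261). That call was lost in 10 of 20 alternatives, with adjusted p of 0.0565 without dKO_Flt3ITD 1, 0.0672 without dKO_Flt3ITD 3, 0.0558 without dKO_Flt3ITD 4, 0.0993 without control 2, 0.0752 without control 3 and 0.0941 without control 4.

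By regulatory group, none of 12 tested WASP and WAVE regulators passed. Abi1, a subunit gene of the WAVE complex, averaged 18.2 ± 6.38 RPKM in dKO_Flt3ITD and 44.4 ± 8.50 in dKO, against 39.7 ± 11.3 in control (SD, n = 4 each). Its log2 fold changes in dKO_Flt3ITD were -1.13 against control (adjusted p = 0.163) and -1.30 against dKO (adjusted p = 0.335), and its dKO_Flt3ITD libraries were below all others.

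Among 16 bundling and membrane-linking genes Scin, the gene of the gelsolin relative scinderin, had the smallest p in dKO against control. Scin had 5.05, 0.197, 4.84 and 0.179 RPKM in dKO_Flt3ITD, 0.0799, 5.15, 2.12 and 0.233 in dKO, and 10.2, 68.5, 95.0 and 2.61 in control. Control 2 and control 3, the same libraries that were high for Gsn, stood above the rest, control 4 overlapped the mutant groups, and the log2 fold changes of -3.10 and -3.34 did not pass (SE 0.95, adjusted p = 0.132 and 0.131). Srf, which encodes the transcription factor that senses free actin through its cofactors, had 3.09, 6.27, 3.27 and 3.18 RPKM in dKO_Flt3ITD, 2.02, 4.44, 5.34 and 1.59 in dKO, and 1.45, 1.72, 1.43 and 0.178 in control. All dKO_Flt3ITD libraries were above all controls, and the log2 fold change of 1.20 did not pass (SE 0.50, adjusted p = 0.293). None passed among 9 Ena/VASP and other formin genes, 5 myosin II chain genes, 8 other monomer and filament end genes or the 5 genes of SRF and its cofactors. The smallest p of these lists against control belonged to Enah, Myl6, Myl12a, Tmod3 and Dstn besides Srf, with adjusted p between 0.253 and 0.741. In the WASP and WAVE list Wasl had the smallest p in dKO against control (adjusted p = 0.499). In dKO_Flt3ITD against dKO Inf2 led the Ena/VASP and formin list and Elk4 the SRF list (adjusted p = 0.847 and 0.852).

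**Figure D5:**
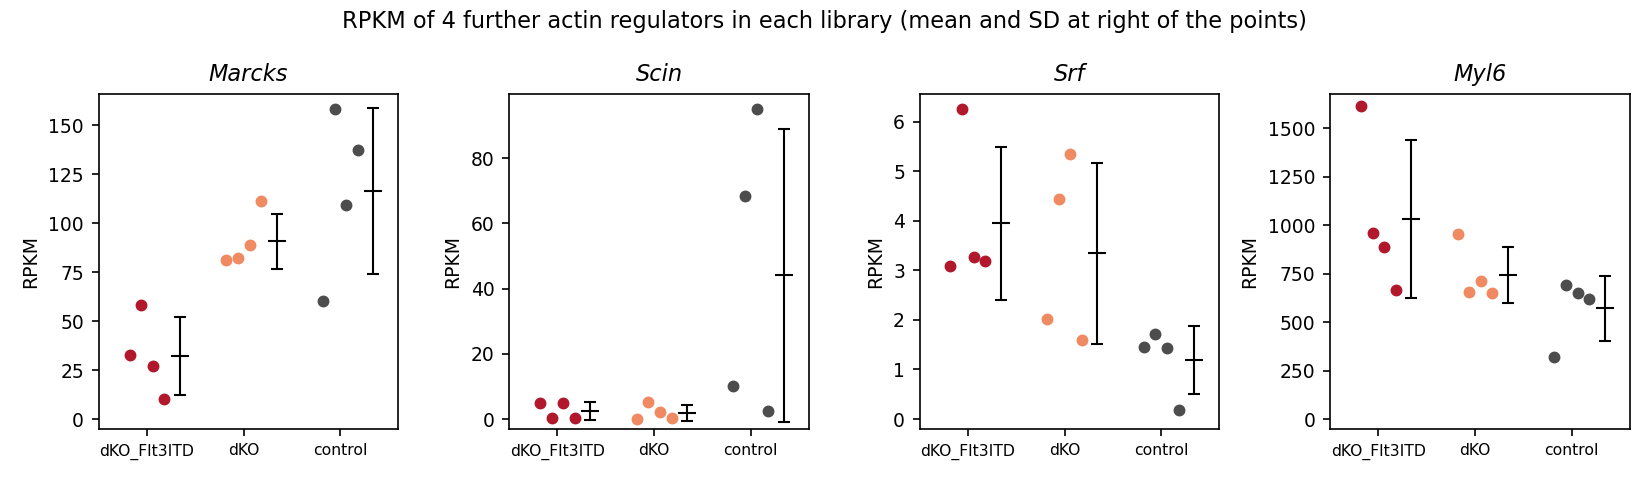
RPKM of Marcks, Scin, Srf and Myl6 in each library, by genotype, with the mean and SD (n = 4) beside the points. Marcks is between 10.4 and 58.3 RPKM in dKO_Flt3ITD and between 81.5 and 111 in dKO, against 60.3 to 158 in control, and the high Scin values come from control 2 and control 3.

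The labelled genotypes and cell type were read beside these results. Ezh2 averaged 16.4 ± 5.59 RPKM in dKO_Flt3ITD and 22.6 ± 5.87 in dKO, against 39.8 ± 5.83 in control (SD, n = 4 each). Runx1 averaged 47.5 ± 11.8 and 46.4 ± 11.1 RPKM in the libraries labelled dKO_Flt3ITD and dKO, against 21.2 ± 4.57 in control, and a sum over the whole gene does not check a deletion of part of it. All 10 ETP markers listed were in the table, among them Kit and Cd44, and their summed level was 292 to 399 RPKM in dKO_Flt3ITD and 326 to 441 in dKO, against 385 to 547 in control. Of the 10, 2 had a positive log2 fold change in dKO_Flt3ITD against control, where Tcf7 and Ccr9 fell, and 3 in dKO against control, where Tcf7 fell. Tcf7 had at most 0.814 RPKM in dKO_Flt3ITD and 0.0535 in dKO, against 4.08 to 42.4 in control.

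Of 4 mast cell and basophil genes in the table (7 listed), the summed level was 197 to 569.8 RPKM in dKO_Flt3ITD and 121 to 325 in dKO, against 17.4 to 127 in control, and none passed. Most of this sum in every library came from Cpa3. That gene had 183 to 566 RPKM in dKO_Flt3ITD and 107 to 319 in dKO, against 16.2 to 113 in control. Mcpt8 overlapped between all groups, at 0 to 12.3 RPKM in dKO_Flt3ITD and 0 to 14.5 in dKO, against 0 to 12.7 in control. Of the 4 genes, 3 had a positive log2 fold change in each mutant group against control. Of 7 granulocyte and monocyte genes (13 listed) the summed level was 98.4 to 1433 RPKM in dKO_Flt3ITD. It was 130.0 to 315 RPKM in dKO, against 114 to 407 in control. The single dKO_Flt3ITD libraries had sums of 672, 98.4, 131 and 1433 RPKM. Of the 5 genes tested, 3 had a positive log2 fold change in each mutant group against control. Ctsg rose in dKO_Flt3ITD against control. Mpo had 56.5, 7.71, 12.9 and 721 RPKM in dKO_Flt3ITD, against 66.0, 129, 230 and 161 in control. In dKO Mpo had 105, 67.6, 53.3 and 15.4 RPKM. Of 7 dendritic cell genes (9 listed) the summed level was 78.2 to 1375 RPKM in dKO_Flt3ITD and 146 to 279 in dKO, against 37.0 to 374 in control. Nearly all of it came from H2-Ab1 and Cd74, which other antigen-presenting cells also express, while Itgax, Zbtb46 and Siglech were at or near 0 in most libraries. Of 3 natural killer and innate lymphoid genes (7 listed) the sum was 0 to 41.4 RPKM in dKO_Flt3ITD and 0.599 to 17.7 in dKO, against 16.0 to 70.6 in control, where Klrd1 gave nearly all of it, and Eomes was near 0 in every library. Of 6 later thymocyte genes (7 listed) it was 6.16 to 61.6 RPKM in dKO_Flt3ITD and 61.4 to 141 in dKO, against 16.4 to 39.6 in control. Rag2 made up most of that in dKO, at 52.5 to 129 RPKM, against 3.64 to 20.9 in control, and Cd8b1 was near 0. In dKO_Flt3ITD Rag2 had 22.4, 40.6, 48.0 and 0.0121 RPKM. Of the 4 later thymocyte genes tested, 3 had a positive log2 fold change in each mutant group against control. Ptcra had 4.91 to 12.7 RPKM in dKO_Flt3ITD and 4.18 to 7.56 in dKO, against 5.15 to 22.5 in control. Of 3 erythroid and megakaryocyte genes (8 listed) the sum was at most 55.5 RPKM in dKO_Flt3ITD and 18.96 in dKO, against 11.6 in control, and of 2 stromal genes (8 listed) at most 3.12, 10.8 and 3.50 RPKM in the same groups. No gene of these last 5 lists passed in any comparison. The part of these cells in the actin gene results was not tested.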

How the data were processed

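Messenger RNA was measured in 12 mouse libraries, 4 per genotype, with groups and replicate numbers from the sample titles. The authors deposited 1 table of RPKM for 13016 genes; the library total behind it, the choice of genes, any use of strand and the treatment of reads that match several places are not stated there or in the labels. Per the submitters' processing notes the build was mm10, and HTSeq 0.5.4p5, SAMtools 0.1.19 and TopHat2 2.0.10 were used. The smallest steps between RPKM values gave whole reads, within 0.001, for 100% of genes, 13623436 to 33985972 per library. Reads amplified from so few cells are not independent molecules, so such reads give counting error and no more. The values of replicates differed beyond counting noise (chi-square per degree of freedom 118 to 644), so none was taken as the same library deposited again, which does not show that they are separate samples.

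The filter kept 10690 genes that reached 1 RPKM in 4 or more libraries. They were fitted on log2(RPKM + 1) with limma 3.58.1 (R 4.3.3), using an intensity trend and a single model of all 12 libraries (9 residual degrees of freedom), with p-values adjusted by the Benjamini-Hochberg method over all of them at 0.05. Fold changes on this scale understate the change of low genes. Ratios of paralogs had exact two-sided permutation tests. The steps were tested on simulated data. Positions come from GENCODE on GRCm38, where 57 genes were placed, 3 by an older symbol, and promoters from RefSeq on GRCm38.p6. Python 3.11.15, numpy 2.4.6, pandas 2.3.3 and matplotlib 3.10.9 were used elsewhere.

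Genes and lists were chosen with earlier results of these data known. The text names 10 genes in any case (Capg, Actb, Actg1, Cfl1, Pfn1, Tmsb4x, Tmsb10, Gsn, Coro1a and Was), every called gene, every gene not overlapping with control, the 2 highest and the most changed gene of each role, and in each regulator list the called genes and the gene with the smallest p per comparison. The values of some listed genes and of 1 regulator list are not reported here. Alternatives were other pseudocounts, filters and scalings, no trend, array weights, the 8 libraries compared alone, a replicate term, voom on the recovered reads and leaving out each library. Leaving out all replicates numbered 1 together was chosen after seeing the data.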

Additional observations from a re-analysis of the deposited data

Results flagged for a closer look

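The 27 actin genes named by rule, Actn4, Abi1, Marcks, Scin and Srf were each examined for a library standing apart from the other 3 of its group on the log2(RPKM + 1) scale. Of these 96 groups 10 held one (10.4%). About 1 in 20 would do so for independent, normally distributed values, which these need not be. Cfl1, the cofilin 1 gene, stood at 1937 RPKM in dKO_Flt3ITD 1, against 1212 to 1273 in the other dKO_Flt3ITD libraries. Cfl1 also stood low in control 1, at 529 RPKM, against 914 to 1018 in the other controls. Tpm3 was lowest in control 1 as well, at 228 RPKM, against 259 to 264 in the other controls. Pfn1, the profilin 1 gene, stood at 1139 RPKM in dKO 1, against 682 to 740.0 in the other dKO libraries. Capza2 was low in dKO 2, at 403 RPKM, against 713 to 791 in the other dKO libraries. Cfl2 was low in control 4, at 0.106 RPKM, against 11.8 to 16.4 in the other controls. Myo6 was at 0.0628 RPKM in dKO_Flt3ITD 4, which rests on 12 reads, and at 0 in the other dKO_Flt3ITD libraries. With the other 3 all at 0, any value above 0 would be flagged. Abi1 was low in dKO_Flt3ITD 1, at 8.74 RPKM, against 20.3 to 22.7 in the other dKO_Flt3ITD libraries. Srf was high in dKO_Flt3ITD 2, at 6.27 RPKM, against 3.09 to 3.27 in the other dKO_Flt3ITD libraries. Srf was also low in control 4, at 0.178 RPKM, against 1.43 to 1.72 in the other controls. The cause of these values was not tested.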

How the results depend on the processing

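In dKO_Flt3ITD against control 160 genes passed, 106 up and 54 down. With libraries scaled to an equal sum this split was 84 up and 84 down, and the median of all genes moved to -0.21 there, -0.11 in dKO against control and -0.09 in dKO_Flt3ITD against dKO. The count was 91 with no filter, 27 with voom, 105 without all replicates 1 together and 94 to 187 without 1 library. The count of actin genes was 1 with voom. In dKO against control 109 genes passed, 64 with no filter, 210 with array weights, 5 with voom, 45 without all replicates 1 together and 58 to 95 without 1 library, and the count of actin genes was 0 with voom and 0 to 1 without 1 library. In dKO_Flt3ITD against dKO the count of 0 became 3 with a pseudocount of 5, 1 with no filter, 1 with a filter of 5 RPKM, 2 at equal sums, 2 with array weights, 1 with the 8 libraries compared, 1 without all replicates 1 together and 0 to 6 without 1 library; no actin gene passed in any.

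Among changes that did not pass, signs turned for Arpc5l in dKO_Flt3ITD against control without dKO_Flt3ITD 1 (-0.014, the highest without 1 library being 0.71), for Actg1 in dKO against control without dKO 2 (0.13) and without control 3 (0.08; lowest -0.53), and for Cfl2 in dKO against control without control 4 (-0.015; highest 1.31). The cause was not tested.

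The replicate numbers were not taken as pairs: same-numbered libraries deviated together with r between -0.15 and 0.13, 2 of 12 pairs were over 0.1, and 2 libraries correlated best with their own number. With the number as a block 116, 85 and 0 genes passed in the 3 comparisons, and 2, 1 and 0 actin genes. Tpm4 and Marcks were not among them in dKO_Flt3ITD against control (adjusted p = 0.0596 and 0.0522), and no paralog ratio passed (0). Reads from 100 cells limit what can be seen of the 24 actin genes under 10 RPKM.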
